A study of Drosophila melanogaster with 33 samples.

Results

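Tumours taken at their first round of culture in adult flies were compared with the mutant larval brains of the same allele, to ask what growth in an adult host adds to the mutant brain. The comparison used 6 of the 33 samples of the series, chosen by sample title and experimentation site. The round 1 tumours were 3 arrays of l(3)mbt[ts1] tissue from the first allograft passage, numbered 1, 2 and 3. The ts1 brains were 3 arrays of l(3)mbt[ts1] homozygous larval brains raised at 29 °C, numbered 4, 5 and 6. All 6 were run at IRB Barcelona, so no site difference lies between them. Both groups carry the temperature-sensitive ts1 allele, so the alleles under test do not differ between them. Tissue age, culture and the adult host all differ between the groups and cannot be told apart. Neither the temperature of the hosts nor their genotype was given in the sources used here. The other groups used for context were tumours at rounds 5 and 10 (3 arrays each, IRB), another 3 arrays of ts1 brains at 29 °C run at EMBL, and w[1118] wild type (WT) brains (3 arrays at IRB). Nothing in the labels tells whether a group's arrays came from separate pools of animals or separate tumours. The p-values therefore cannot be taken to measure the spread between independent animals or tumours. They rest on the scatter within all 8 IRB groups of the main fit, not within the 6 compared arrays alone. Besides the tumours, ts1 brains and WT brains, these groups were brains of the l(3)mbt allele E2 at 17 °C and at 29 °C. The last group was ts1/E2 brains at 29 °C, again with 3 arrays per group. WT brains and ts1 brains at 17 °C run at EMBL (3 arrays each) entered only the fits that use EMBL arrays.

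The product of l(3)mbt binds chromatin as part of repressive complexes, and its loss lets larval brain tissue overgrow and express genes that are normally restricted to the germline. In an allograft assay a piece of larval brain is injected into the abdomen of an adult fly, where it is bathed in haemolymph, next to fat body, gut and ovary or testis and in reach of circulating haemocytes. Tissue that keeps growing can be passed from host to host. RNA from such a tumour can therefore hold transcripts of the grafted cells and of host cells dissected with it, and in bulk RNA fewer cells of a type and less RNA per cell cannot be told apart.

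Levels are log2 expression values per gene, 1 probe set per gene, and differences are log2 differences, round 1 tumours minus ts1 brains, with the standard error (SE) of a limma fit. Array signals depend on the probe, so levels are compared between samples and not between genes. Signals under about 4 lie near background, and how large a difference from such a group is cannot be taken as exact. Of 27 neuroblast and ganglion mother cell genes, 25 were over 4 on every array of the round 1 tumours and 25 on every array of the ts1 brains. WT brains had 25 as well, so this count does not tell the groups apart. Over all 11982 genes, 6988 to 7312 were over 4 on single arrays of the 2 compared groups. Arrays of the round 1 tumours correlated at 0.930 to 0.938 with each other, and those of the ts1 brains at 0.875 to 0.957. The within-group SD passed 1 in 12.7% of tested genes in round 1 tumours, 19.1% in ts1 brains and 3.45% in WT. Replicates 5 and 6 of the ts1 brains correlated least with each other, at 0.875, and their median correlations with the group were 0.916 and 0.902. Counts are given with and without replicate 6, the lower of these. The control probe set for eIF4a, whose 5′ signal drops below its 3′ signal where RNA or labelling is shortened, had a 5′ minus 3′ log2 difference of -1.27, -1.58 and -1.52 in the round 1 tumours, against -1.71, -1.27 and -2.38 in the ts1 brains, replicate 6 being lowest. The part of this difference in the results below was not tested. Among all arrays of the main fit, replicate 1 of the E2 brains at 29 °C had the lowest median correlation with its group, 0.741. Its eIF4a difference was -11.96.

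In round 1 tumours 1144 genes were higher and 814 lower than in ts1 brains, of 8264 genes tested (limma, Benjamini-Hochberg adjusted p under 0.05 and at least a 2-fold difference). These calls were 23.7% of the genes tested, 13.8% higher and 9.85% lower, and the arrays of the groups did not overlap for 45.9% of genes. The median difference over all genes was 0.048. Without ts1 replicate 6 the counts were 749 higher and 676 lower, or 9.06% and 8.18%, and against the EMBL ts1 brains 650 higher and 778 lower, or 7.87% and 9.41%. Leaving out ts1 replicate 5 instead of replicate 6 moved the counts the other way, to 1476 higher and 917 lower. With only the 6 compared arrays in the fit, 527 were higher and 468 lower, or 6.38% and 5.66%. The side with more genes depended on the scaling: 58.4% of calls were higher in tumours with the deposited values, and 49.1% after each array was centred on its own median, which shifted the median difference by -0.23. On the first principal component of the 24 IRB arrays, round 1 tumours lay between -81.8 and -72.4, ts1 brains between 3.77 and 74.5, with replicate 5 nearest to the tumours, and WT brains between 59.0 and 66.3.

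**Figure D1:**
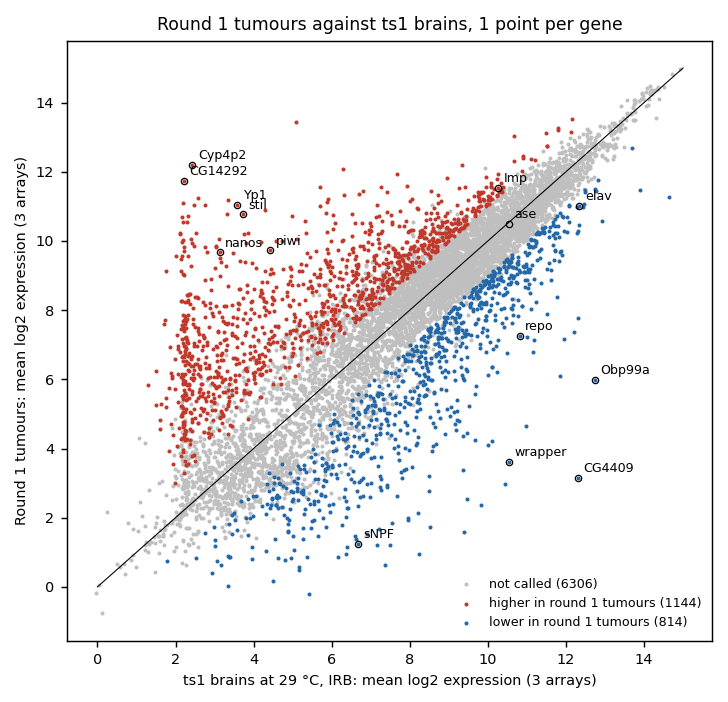
Mean log2 expression of each of the 8264 tested genes in round 1 tumours (vertical axis, 3 arrays) and in ts1 brains (horizontal axis, 3 arrays). Red points are the 1144 genes called higher in round 1 tumours, blue points the 814 called lower, grey points the 6306 not called, and the line marks equal levels. A column of red points stands at a ts1 brain level near 2, where signal is near background.

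The genes with the largest gains were near background in the ts1 brains. Cyp4p2, a cytochrome P450, had 12.15, 12.09 and 12.38 in the round 1 tumours, against 2.31, 2.38 and 2.60 in the ts1 brains. Its difference was 9.78 ± 0.15 (SE, adjusted p 1.46e-18), and it stayed high in later passages, with means of 12.06 in round 5 and 11.77 in round 10. Another P450 gene, Cyp4p1, averaged 10.55 ± 0.44 in round 1 tumours and 2.29 ± 0.00 in ts1 brains (SD, n = 3 each), and Cyp309a1, averaged 11.04 ± 0.20 in round 1 tumours and 2.76 ± 0.49 in ts1 brains. Cyp309a1 was at 6.59 in the ts1 brains from EMBL, so its difference of 8.29 was 4.45 against those arrays. Phk-3, a small secreted protein of the chemosensory protein family, had 12.84, 13.41 and 14.05 in the tumours, against 3.17, 9.01 and 3.10 in the ts1 brains. Among the IRB ts1 brains only replicate 5, the array closest to the tumours, had a clear Phk-3 signal. The EMBL ts1 brains averaged 7.27, so its difference of 8.33 was 6.16 against those arrays. In the ts1/E2 brains at 29 °C Phk-3 averaged 9.07, while Cyp4p2, Cyp4p1 and Cyp309a1 were at 2.26, 2.30 and 2.69.

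Another part of the largest gains was high in the first round and had means under 4 in the later ones. CG14292 had 12.62, 9.87 and 12.72 in round 1 tumours, against 2.22, 2.2 and 2.2 in ts1 brains, a difference of 9.53 ± 0.60 (adjusted p 3.19e-09), and its mean was 2.61 in round 5 and 3.44 in round 10. The mucin gene Muc11A had 13.01, 7.70 and 12.38 in the tumours, against 2.48, 2.47 and 2.46 in the brains, with later means of 2.78 and 3.93. For CG14292, Muc11A, Mur18B, mat and Ag5r the lowest of the 3 tumour arrays was replicate 2. The maltase gene Mal-A1 followed a different order, with 12.55, 9.38 and 7.99 in the tumours against 2.17, 2.16 and 2.15 in the brains, and it was at 2.17 and 2.2 in rounds 5 and 10. Mal-A1 encodes a digestive enzyme of the gut.

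Agpat4 (an acyltransferase of phospholipid synthesis), CG32483, CG4716, CG9427, CG10859, CG9875, CG10621, CG31373 and CG32313 were also among the 20 largest gains, with differences between 7.53 and 8.92. Of these, CG32313 alone was not called against the EMBL ts1 brains: its levels were 11.17, 11.15 and 11.25 in the tumours, against 3.28, 5.37 and 1.37 in the ts1 brains, while the EMBL ts1 brains averaged 10.45. Against those arrays its difference was 0.74. The differences of Agpat4, CG32483, CG9427, CG10859 and CG31373 were also smaller against them, at 4.55, 4.77, 4.85, 4.43 and 2.93. That of CG9875 was smaller as well, while CG4716 had 8.39 and CG10621 had 7.07. In the E2 brains at 29 °C CG10621 averaged 8.93, against 10.23 in the tumours, and CG4716 averaged 2.32. Bbd, whose product acts in the humoral response together with the Bomanin peptides, had 9.57, 9.78 and 10.11 in the tumours, against 2.22, 2.2 and 2.2 in the ts1 brains. Its difference of 7.62 was 5.53 against the EMBL ts1 brains.

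**Figure D2:**
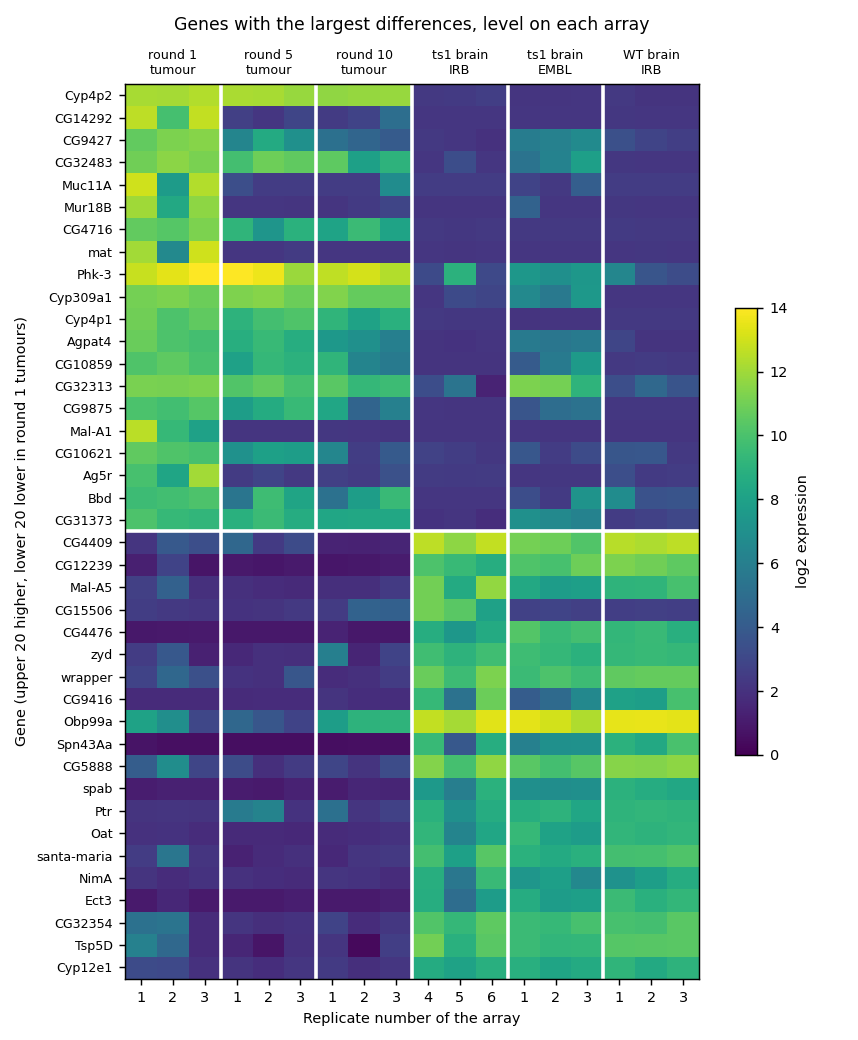
Log2 expression on each array (colour) of the 20 genes with the largest gains and the 20 with the largest losses in round 1 tumours among called genes whose groups do not overlap. Columns are arrays, from the left round 1, 5 and 10 tumours, ts1 brains from IRB and EMBL, and WT brains. Mur18B, mat, Mal-A1 and Ag5r are bright in round 1 and dark in rounds 5 and 10. CG14292 and Muc11A are bright in round 1 and dark in round 5, but vary between the round 10 arrays. CG32313 is bright in the EMBL ts1 brains, and CG15506 is bright only in the IRB ts1 brains among the arrays shown.

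Genes of the humoral immune response were among the gains. Of 6 antimicrobial peptide genes tested, 4 rose and none fell, with a median difference of 3.73 against 0.048 over all genes (2 of 6 without ts1 replicate 6, median 3.86). BomS2, a short Bomanin peptide of the Toll response, had 9.84, 11.25 and 10.50 in the tumours, against 5.98, 5.85 and 6.46 in the ts1 brains, and all tumour arrays were above all brain arrays. Drsl6 had 5.91, 8.31 and 8.26 in the tumours and 2.19, 2.18 and 2.18 in the brains. The Imd target DptB varied between tumours, with 6.12, 9.44 and 2.39 against 2.2, 2.19 and 2.19 in the brains, and Mtk did likewise with 6.39, 9.50 and 2.98 against 2.25, 2.47 and 3.13, so replicate 2 was highest for both and replicate 3 was at the brain level. Another 7 peptide genes were too low on all arrays to be tested. The summed signal of the 13 peptide genes on the array was 10.3, 12.7 and 10.8 in round 1 tumours, against 7.13, 7.0 and 7.74 in ts1 brains (log2).

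Among 19 immune recognition and signalling genes, 9 rose and 2 fell, with a median difference of 1.18, but without ts1 replicate 6 only 2 rose and 1 fell. GNBP3, a receptor for fungal glucans, had 9.73, 10.48 and 10.38 in the tumours against 7.22, 8.64 and 5.72 in the brains. PGRP-SB1, a secreted peptidoglycan recognition protein, had 6.17, 9.56 and 2.75 against 2.53, 2.74 and 2.48, again highest in tumour replicate 2. The Toll adaptor Myd88 had 6.99, 7.87 and 6.92 against 3.75, 6.96 and 1.23, so ts1 replicate 5 reached the tumour range, and without ts1 replicate 6 its adjusted p was 0.138. The genes that fell were spz, the Toll ligand, with 4.23, 4.23 and 2.69 against 7.36, 5.55 and 8.14, and the receptor gene Tl, with a difference of -1.23 ± 0.41 (adjusted p 0.0297, and 0.0937 without ts1 replicate 6).

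Haemocytes, the blood cells of the fly, are marked by surface receptors and clotting proteins. Of 14 haemocyte genes 5 rose and none fell, with a median difference of 1.10. Without ts1 replicate 6 the count was also 5, though PPO3 was then not called (adjusted p 0.0762). NimC1, a phagocytosis receptor of plasmatocytes, had 7.10, 8.05 and 5.70 in the tumours, against 1.88, 1.99 and 2.37 in the ts1 brains (4.88 ± 0.98, adjusted p 0.00097). The clotting protein hemolectin, Hml, had 6.93, 8.86 and 4.87 against 2.38, 2.34 and 2.10. Sr-CI, a scavenger receptor for bacteria, had 3.99, 6.21 and 5.32 against 2.2, 2.19 and 2.19, so for all of these genes the tumours lay above the brains and replicate 2 was highest. Pvr, the PDGF and VEGF receptor that haemocytes and glia use, had 8.34, 8.55 and 8.68 against 3.68, 6.57 and 4.32, and PPO3, a prophenoloxidase of lamellocytes, had 2.79, 4.87 and 2.99 against 2.34, 2.30 and 2.32, near background on most arrays. Other haemocyte genes did not pass the test, among them crq, an engulfment receptor, with a difference of 0.06 ± 0.19, and srp, the GATA factor of the lineage, at -0.18. The summed signal of the list was 11.29, 11.75 and 11.38 in the tumours against 10.87, 10.97 and 10.93 in the ts1 brains. How much of the peptide and haemocyte signal came from host cells was not tested.

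Some genes known as markers of adult tissues were higher in the tumours, unevenly between arrays, and whether their transcripts came from the hosts was not tested. Of 8 yolk protein and adult fat body genes, 5 rose and 1 fell (the same counts without ts1 replicate 6), with a median of 2.32. With the 6 compared arrays alone 1 rose and 1 fell, and against the EMBL ts1 brains 4 and 1. The summed signal of the list was 13.06, 12.57 and 11.51 in the tumours against 12.64, 12.44 and 12.70 in the ts1 brains, so the sums overlapped. Most of the ts1 brain sum was the signal of a single gene, apolpp (below), so this overlap does not describe the yolk protein genes. Yp1, a yolk protein that the fat body and ovary of adult females make, had 11.94, 11.29 and 9.90 in the tumours, against 3.11, 2.60 and 5.04 in the ts1 brains (7.46 ± 0.94, adjusted p 1.3e-05). Yp2 had 10.29, 9.72 and 4.84 against 2.37, 2.29 and 2.26, and Yp3 had 9.57, 7.93 and 2.56 against 2.35, 2.34 and 2.59. All yolk protein genes were highest in tumour replicate 1 and lowest in replicate 3, where Yp3 was at the brain level. The female-biased fat body gene fit had a different order, with 5.61, 2.59 and 6.66 against 2.17, 2.16 and 2.16. Lpin, the lipin of fat storage, rose by 1.85 ± 0.49, and apolpp, the apolipophorin precursor that carries lipid in haemolymph, was lower in the tumours, at 10.82, 9.70 and 10.15 against 12.38, 11.97 and 12.50. In later passages Yp1 averaged 4.44 in round 5 and 7.58 in round 10.

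Of 9 adult gut genes, 3 rose and none fell, with a median of 2.83. Another 8 gut genes were too low to test. No gut gene on the array was over 4 on every ts1 brain array, so falls could hardly be seen. The trypsin gene alphaTry had 12.59, 4.66 and 6.0 in the tumours against 2.24, 2.23 and 2.45 in the brains, and the protease gene Jon99Ci had 9.73, 5.01 and 3.14 against 2.28, 2.17 and 2.30. Tumour replicate 1 was thus highest for both, whereas LysX, a lysozyme, had 3.94, 5.41 and 6.69 against 1.76, 1.54 and 2.85. The summed gut signal was 13.5, 7.39 and 8.17 in the tumours against 6.28, 6.28 and 9.18 in the brains, so the groups overlapped. Of 16 muscle genes 2 rose, no larger a share than the 13.8% over all genes, while against the EMBL ts1 brains 8 of 16 were higher with a median of 2.04. The genes that rose were Mlp60A, a muscle LIM protein, with 6.20, 8.23 and 6.77 against 2.32, 2.31 and 2.29, and the flight muscle actin Act88F, with 3.48, 6.95 and 5.86 against 2.30, 2.29 and 2.28. None of the 5 chorion and vitelline membrane genes tested, the 2 male accessory gland genes, the 3 larval fat body genes or the 5 salivary glue genes was called in limma, and at an unadjusted p under 0.05 there were 2 chorion and vitelline membrane genes, both higher, and 0 of the others. Against the EMBL ts1 brains all 5 glue genes were called higher (median 5.84), 1 larval fat body gene was lower, and 2 chorion and vitelline membrane genes were higher and 1 lower. The larval fat body median was -2.61 against those arrays and 0.87 against the IRB ts1 brains. Another 11 chorion and vitelline membrane genes and 9 accessory gland genes were too low to test. The glue gene Sgs3, a larval salivary gland product, had 11.54, 4.10 and 4.02 in the tumours and 3.97, 3.96 and 4.08 in the brains, and the larval serum protein gene Lsp2 had 10.28, 3.36 and 5.42 against 4.98, 5.31 and 6.18. Sgs3 and Lsp2 were chosen after their values were seen. Tumour replicate 1 was therefore highest for yolk protein genes, gut proteases, glue and larval serum protein, and tumour replicate 2 for the summed antimicrobial peptide and haemocyte signals. Leaving out tumour replicate 1 gave 1003 genes higher and 758 lower over all genes, and leaving out replicate 2 gave 882 and 744. Single arrays stood out in round 5 tumours as well. Gut signal summed to 6.50, 6.37 and 12.41 there, and glue signal to 7.88, 14.01 and 8.13.

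**Figure D3:**
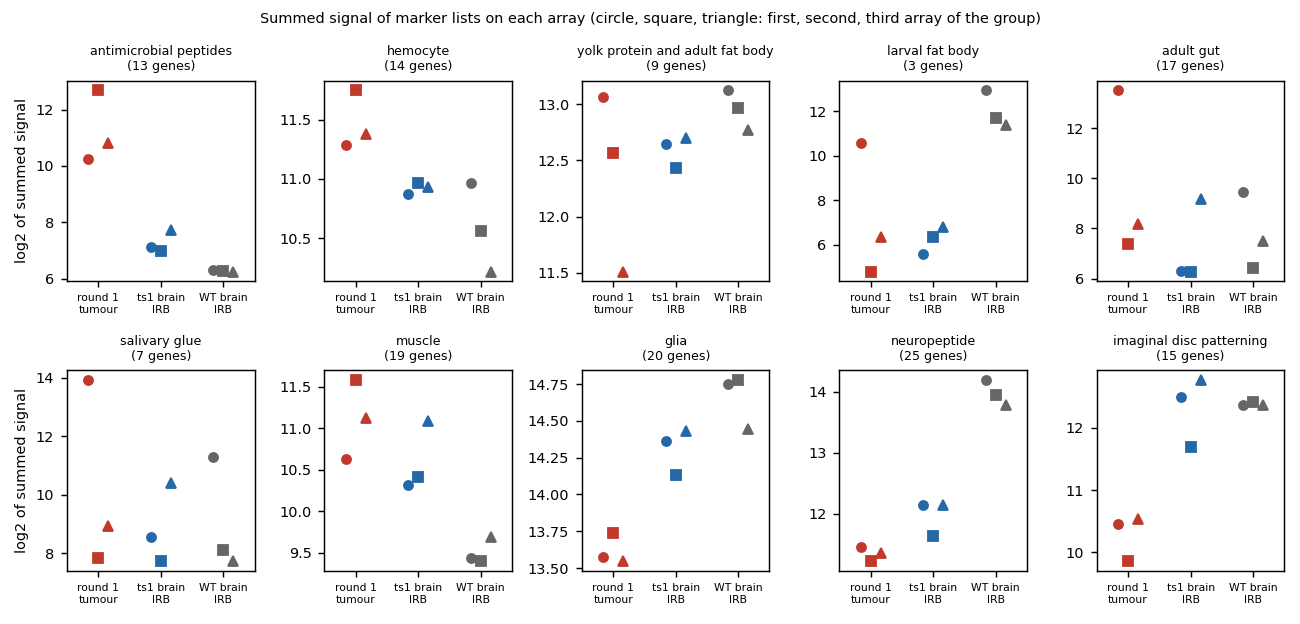
Log2 of the summed linear signal of marker gene lists on each array, for round 1 tumours (red), ts1 brains from IRB (blue) and WT brains (grey), with a vertical scale of its own in each panel. Circles, squares and triangles are the arrays of a group in order of replicate number. Antimicrobial peptide genes sum to 10.3 to 12.7 in the tumours and 7.0 to 7.74 in the ts1 brains, and gut, glue and larval fat body sums are high in the first tumour array alone among tumours.

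Of 16 detoxification and metal-binding genes, 8 rose and none fell, with a median of 1.40 (5 of 16 without ts1 replicate 6, median 1.72). Only 2 of the 16 were called higher with the 6 compared arrays alone, and 2 against the EMBL ts1 brains. Cyp6g1, a P450 known for insecticide resistance, had 8.67, 8.73 and 6.13 in the tumours, against 2.99, 2.91 and 2.95 in the ts1 brains (4.90 ± 0.59, adjusted p 7.23e-06). The glutathione S-transferase gene GstE1 had 10.14, 9.34 and 7.40 against 3.15, 6.82 and 7.15, GstE6 had 10.06, 9.02 and 8.48 against 4.0, 8.45 and 2.44, and GstE3 had 8.16, 8.27 and 2.12 against 1.59, 1.86 and 2.2. Tumour replicate 3 was lowest for each of these, and for GstE3 it was at the brain level. GstE1 was also high in WT brains, at 10.32, so its difference marks a low level in the ts1 brains as well.

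The genes of the germline were the other large block of gains. The piRNA pathway silences transposons in the germline with small RNAs bound to the Piwi proteins, which are made in the nuage by Tudor-domain and nuclease partners. Of 29 piRNA pathway genes tested, 17 rose and none fell, with a median of 1.83 against 0.048 over all genes. Without ts1 replicate 6 the count was 10, with only the 6 compared arrays in the fit it was 5, and against the EMBL ts1 brains it was 4 with a median of 0.22. Among the Argonaute proteins, piwi had 9.89, 9.03 and 10.27 in the tumours, against 4.12, 4.37 and 4.78 in the ts1 brains (5.31 ± 0.37, adjusted p 1.16e-08). The EMBL ts1 brains averaged 10.62 for piwi, so the direction of this difference depended on which ts1 brains were used, and against those arrays it was -0.89. AGO3 had 10.27, 10.15 and 10.32 against 7.13, 8.53 and 4.88, with 9.88 in the EMBL ts1 brains, and aub had 10.41, 11.04 and 10.09 against 7.73, 9.17 and 3.41. Hen1, the methyltransferase that methylates piRNA ends, had 8.98, 10.13 and 8.71 against 6.43, 7.69 and 4.97. For AGO3, aub and Hen1 the lowest brain array was replicate 6 and the highest was replicate 5.

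Some of these germline genes were already far above background in the mutant brain. The nuage component krimp had 11.24, 11.26 and 11.44 in the tumours, against 9.68, 10.54 and 9.0 in the ts1 brains, and cona, a synaptonemal complex protein, had 13.15, 13.14 and 13.17 against 12.17, 12.77 and 11.46. Differences were 1.57 ± 0.29 for krimp and 1.02 ± 0.27 for cona, both chosen here after their values were seen. In contrast vas, the germline helicase Vasa, was at 6.39, 5.62 and 6.98 in the tumours against 7.70, 7.30 and 7.94 in the brains and was not called (adjusted p 0.264).

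In the list of 24 oogenesis and germline stem cell genes, 10 rose and none fell (2 were lower at an unadjusted p under 0.05), 9 rose without ts1 replicate 6, the median was 1.09, and 9 rose against the EMBL ts1 brains. stil, a regulator of female germline sex and survival, had 10.96, 10.99 and 10.36 in the tumours, against 3.89, 4.88 and 2.43 in the ts1 brains (7.03 ± 0.71, adjusted p 1.04e-06). The translational repressor gene nanos had 9.80, 9.90 and 9.31 against 3.11, 3.17 and 3.10, and bgcn, the partner of bam in cystoblast differentiation, had 10.04, 10.17 and 10.48 against 4.29, 5.04 and 2.23. gnu, an activator of the egg-to-embryo kinase Pan gu, had 11.36, 10.87 and 10.46 against 6.53, 3.81 and 2.54. The tumours lay above all IRB brain arrays for each of these 4 genes, while the means of the EMBL ts1 brains lay between those of the tumours and of the IRB ts1 brains, at 4.66 for stil, 7.79 for nanos, 7.75 for bgcn and 7.08 for gnu. The differentiation factor bam itself was not called, at -0.33.

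Of 15 meiosis genes, 9 rose and none fell (7 without ts1 replicate 6), with a median of 1.52. Against the EMBL ts1 brains 6 rose, with a median of 0.22. vilya, a component of recombination sites, had 8.29, 8.10 and 8.19 in the tumours against 2.73, 3.02 and 2.93 in the ts1 brains, and narya, its RING-domain partner, had 8.05, 8.36 and 6.82 against 3.27, 3.65 and 4.28. sunn, a meiotic cohesin protein, had 10.64, 10.48 and 10.95 against 8.13, 8.75 and 4.48. hdm, a crossover protein, had 6.62, 7.74 and 5.58 against 2.46, 2.69 and 2.03, but the EMBL ts1 brains averaged 6.97 and the difference from them was -0.33. Of 16 testis genes, 4 rose and 2 fell, with a median of -0.13, and without ts1 replicate 6 the counts were 2 and 2. topi, a meiotic arrest gene, had 9.59, 10.78 and 10.31 against 5.18, 8.08 and 2.76, and the sperm gene ocn had 7.15, 7.26 and 6.72 against 2.19, 2.25 and 2.5. Another 2, tomb and mia, rose by 2.18 and 1.04, and mia turned to -0.70 against the EMBL ts1 brains. The genes that fell were ProtA, a protamine, with 2.48, 2.5 and 2.43 against 5.97, 6.56 and 6.59, and betaTub85D, a sperm tubulin, with 2.49, 2.69 and 1.97 against 5.23, 2.68 and 5.15, which was not called without ts1 replicate 6 (adjusted p 0.184). ProtA was at 2.21 in the EMBL ts1 brains and 2.45 in WT, so the high value stood in the IRB ts1 brains alone among these groups.

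**Figure D4:**
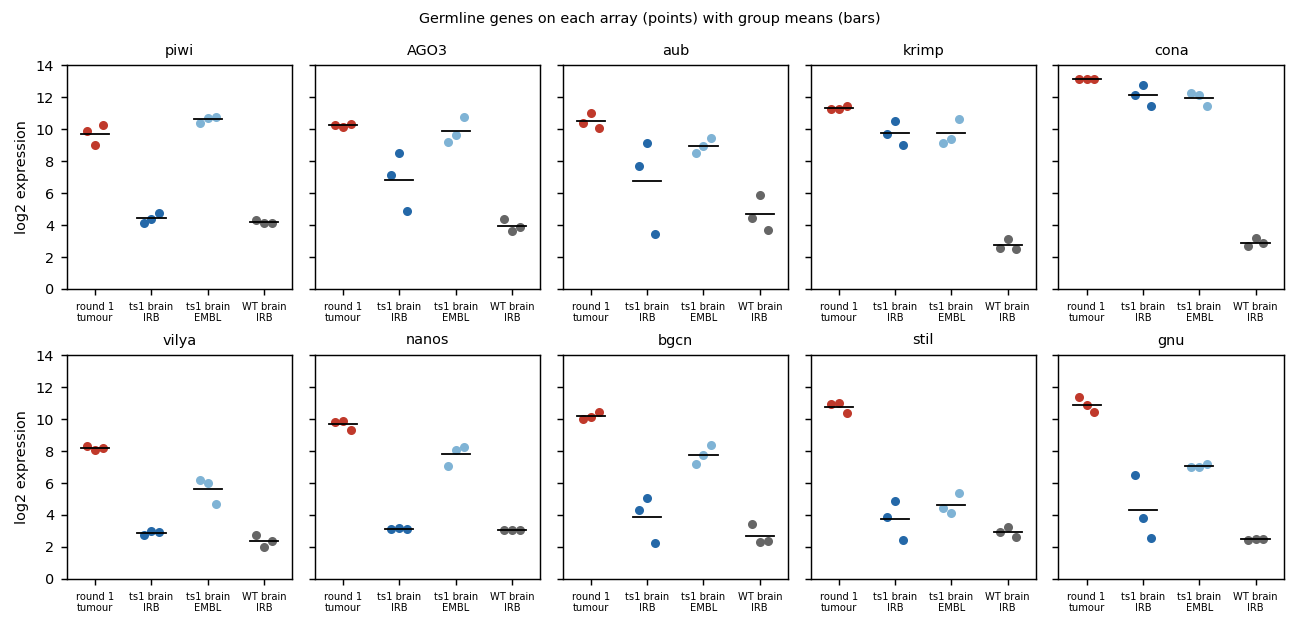
Log2 expression of 10 germline genes on each array (points) with group means (bars), for round 1 tumours (red), ts1 brains from IRB (dark blue) and from EMBL (light blue), and WT brains (grey). piwi is at 9.03 to 10.27 in the tumours, near 4 in the IRB ts1 brains and at 10.62 on average in the EMBL ts1 brains, while stil and nanos are higher in the tumours than in either set of ts1 brains.

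Among the losses were parts of the lists for differentiated brain cells. Of 20 glial genes 7 fell and none rose (1 was higher at an unadjusted p under 0.05, and 6 fell without ts1 replicate 6), with a median of -0.92. The other 13 were not called, and with the 6 compared arrays alone 3 fell. wrapper, an adhesion protein of glia that ensheath neurons, had 2.81, 4.65 and 3.41 in the tumours, against 10.82, 9.57 and 11.25 in the ts1 brains (-6.93 ± 0.48, adjusted p 9.78e-09). The astrocyte gene alrm had 7.49, 4.27 and 1.54 against 9.63, 9.79 and 8.98, and averaged 1.05 in round 5 and 1.16 in round 10. repo, the homeodomain factor that defines glia, had 7.65, 7.77 and 6.37 against 10.78, 10.22 and 11.47, so it was lower but well above background, and the FGF receptor gene htl had 3.43, 2.66 and 1.82 against 6.78, 6.30 and 7.31. zyd, a sodium and calcium exchanger of cortex glia and 1 of the 20 largest losses, had 2.49, 3.83 and 1.27 against 9.70, 9.03 and 9.70.

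Part of the neuronal genes fell as well. Of 29 neuronal differentiation and synapse genes, 14 fell and none rose (1 was higher at an unadjusted p under 0.05, and 12 fell without ts1 replicate 6), with a median of -1.23. Against the EMBL ts1 brains 10 fell and 2 rose, with a median of -0.55. elav, the RNA-binding protein found in all neurons, had 11.17, 11.08 and 10.82 in the tumours, against 12.47, 12.05 and 12.51 in the ts1 brains (-1.32 ± 0.23, adjusted p 0.000263). Its mean in the EMBL ts1 brains was 10.62, so against those arrays the difference was 0.40 and not called. Synapse genes showed larger losses: Syn, the vesicle protein synapsin, had 5.81, 4.61 and 3.75 against 9.03, 7.36 and 9.36, and Snap25, of the fusion machinery, had 8.06, 7.92 and 5.39 against 10.41, 9.63 and 10.71. Among transmitter genes, Gad1, which makes GABA, had 8.69, 7.25 and 4.67 against 10.35, 9.69 and 10.32, and VAChT, the acetylcholine transporter, had 8.40, 8.17 and 7.57 against 10.81, 9.92 and 11.09. Tumour replicate 3 had the lowest level of each of these synapse and transmitter genes. nSyb fell by 1.42, and the active zone gene brp, at -1.26 ± 0.53, was not called (adjusted p 0.0764).

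Of 24 neuropeptide genes, 13 fell and 3 rose (11 and 3 without ts1 replicate 6), with a median of -1.90. sNPF had 1.38, 1.24 and 1.12 in the tumours, against 7.45, 5.70 and 6.88 in the ts1 brains (-5.43 ± 0.34, adjusted p 3.12e-09), and Capa had 0.86, 0.91 and 0.78 against 6.48, 5.55 and 6.45, so both were at background in all tumour arrays. Nplp1 had 5.25, 4.95 and 2.5 against 10.18, 8.96 and 9.86. The exceptions were Nplp2, with 9.84, 9.55 and 8.85 against 3.74, 3.47 and 3.77, ETH, the ecdysis triggering hormone of the Inka cells, with a difference of 2.37 ± 0.59, and Crz, corazonin, with 9.46, 9.23 and 9.38 against 8.02, 7.70 and 7.47. Crz was at 9.41 in WT and 9.10 in the EMBL ts1 brains, close to the tumour level, and against the EMBL ts1 brains its difference was 0.26.

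Of 26 neuroblast and ganglion mother cell genes, 5 fell and 1 rose (5 and 0 without ts1 replicate 6), with a median of -0.16. Against the EMBL ts1 brains 3 fell and 5 rose, with a median of -0.052, so the side with more calls depended on which ts1 brains were used. This median was nearer to 0 than those of the neuronal, peptide and glial lists, and the lists were not tested against each other. The proneural factor gene ase had 10.76, 10.66 and 10.08 in the tumours, against 10.54, 11.15 and 9.94 in the ts1 brains, wor had 11.29, 10.87 and 10.03 against 11.68, 11.98 and 10.49, and mira, the cargo adaptor of asymmetric division, had 9.16, 9.01 and 8.38 against 9.86, 9.47 and 8.71. None of these was called (adjusted p 0.924, 0.163 and 0.324), and the groups overlapped for all of them, but wor was called lower without ts1 replicate 6 (-1.10, adjusted p 0.0192). The genes that fell were dpn, a self-renewal factor, with 7.60, 6.88 and 5.46 against 9.67, 10.05 and 8.67, erm, of intermediate progenitors, with 8.29, 7.91 and 5.20 against 11.91, 10.83 and 10.78, pros, the differentiation factor, with a difference of -1.05 ± 0.21, svp with -1.33 and Syp with -1.32. Syp marks late neuroblasts and Imp, which opposes it, early ones: Imp had 11.27, 11.72 and 11.62 against 9.38, 11.29 and 10.12, and was the gene that rose (1.27 ± 0.38, adjusted p 0.0158), with ts1 replicate 5 inside the tumour range. Without ts1 replicate 6 Imp was 1.20 with an adjusted p of 0.0552, and Syp had 11.34, 11.68 and 11.30 against 12.69, 12.84 and 12.75 with a difference of -0.034 from the EMBL ts1 brains. Against the EMBL ts1 brains Imp was 1.52 and called, and it stayed at 11.93 and 11.91 in rounds 5 and 10.

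Part of the genes that pattern the optic lobe and the discs also fell. Of 16 optic lobe and eye genes, 9 fell and 1 rose (8 and 0 without ts1 replicate 6), with a median of -1.60. Optix, of the optic lobe and eye field, had 3.14, 2.48 and 2.14 in the tumours against 7.31, 6.62 and 6.99 in the ts1 brains, and slp2, a temporal factor of medulla neuroblasts, had 5.68, 5.10 and 7.13 against 9.73, 7.79 and 9.93. Sox102F had 3.02, 2.76 and 3.17 against 8.02, 4.26 and 8.45. chp, the photoreceptor protein chaoptin, rose by 2.49 ± 0.81, but its difference was 1.5 without ts1 replicate 6 and -0.31 against the EMBL ts1 brains, and it was not called in either. Of 12 imaginal disc patterning genes, 6 fell and none rose, also without ts1 replicate 6, with a median of -1.92. tsh had 3.53, 3.92 and 2.13 against 8.40, 7.81 and 9.26, bi had 4.79, 6.78 and 6.80 against 9.77, 8.37 and 9.85, and the spalt genes salm and salr fell by 2.64 and 3.10. The signal of the disc list summed to 10.5, 9.85 and 10.5 in the tumours against 12.5, 11.7 and 12.8 in the brains (log2).

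**Figure D5:**
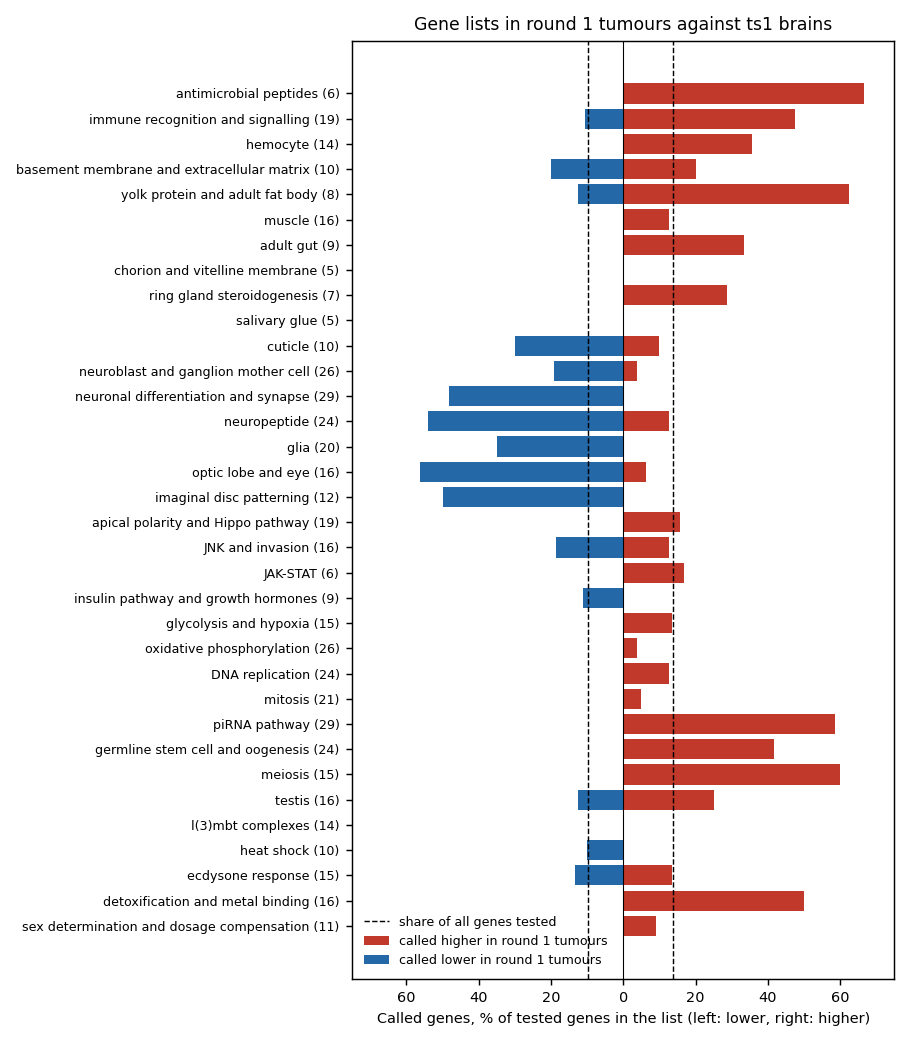
Share of the tested genes of each list called higher (red, right) or lower (blue, left) in round 1 tumours against ts1 brains, in percent, with the number tested in brackets and dashed lines at the shares over all genes, 13.8% higher and 9.85% lower. Lists of fewer than 5 tested genes are not drawn. The piRNA, meiosis, antimicrobial peptide and yolk protein lists reach far past the right line, and the neuropeptide, optic lobe, disc and neuronal lists past the left one.

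The largest losses of single genes were spread over other families. CG4409 had 2.18, 3.91 and 3.37 in the tumours, against 12.60, 11.60 and 12.72 in the ts1 brains (-9.15 ± 0.58, adjusted p 3.12e-09), and CG12239 had 1.22, 2.79 and 0.79 against 10.07, 9.41 and 8.71. Obp99a, an odorant-binding protein, had 8.06, 6.90 and 3.00 against 12.72, 12.12 and 13.38, and Mal-A5, a maltase related to the Mal-A1 gene that rose, had 2.66, 4.35 and 1.92 against 11.03, 8.58 and 11.73. The enzyme gene Oat (ornithine aminotransferase), the P450 gene Cyp12e1, the serpin gene Spn43Aa, the scavenger receptor gene santa-maria, the tetraspanin gene Tsp5D and the Nimrod gene NimA fell by 5.74 to 6.74. CG15506 fell by 7.46, with 11, 10.43 and 8.03 in the IRB ts1 brains, and it was at 2.76 in the EMBL ts1 brains and 2.62 in WT. The high value thus stood in the IRB ts1 brains alone among these groups.

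Growth, metabolic and chromatin lists had few called members. Over all genes, 13.8% were called higher and 9.85% lower. The l(3)mbt transcript had 8.71, 9.11 and 8.52 in the tumours, against 7.71, 8.33 and 5.66 in the ts1 brains (1.55 ± 0.60, adjusted p 0.0564), and since both groups carry the allele this level does not check the labels. None of the 14 genes of the l(3)mbt complexes was called (limma, median -0.19), with 2 higher and 2 lower at an unadjusted p under 0.05. Of 24 DNA replication genes 3 rose (Cdc6, Orc1 and Psf2, by 1.28, 1.61 and 2.92) and of 21 mitosis genes 1 did (Incenp, by 1.30). Without ts1 replicate 6 the adjusted p was 0.297 for Cdc6, 0.279 for Orc1, 0.0636 for Psf2 and 0.0513 for Incenp, so none of these calls was kept. Of 26 oxidative phosphorylation genes 1 rose, ND-20, by 1.08 (adjusted p 0.0937 without ts1 replicate 6). At an unadjusted p under 0.05 (limma), 7 DNA replication, 6 mitosis and 10 oxidative phosphorylation genes were higher and none was lower. The medians of these lists were 0.54, 0.45 and 0.45, and 0.034, 0.0042 and 0.37 without ts1 replicate 6. The groups did not overlap for 17 of the 26 oxidative phosphorylation genes, beside 45.9% over all genes. In the glycolysis and hypoxia list 2 of 15 rose: Pglym78, a phosphoglycerate mutase gene, by 1.92, and Tps1, which makes the blood sugar trehalose, with 9.67, 9.62 and 9.37 in the tumours against 2.31, 2.32 and 2.30 in the ts1 brains. Tps1 averaged 6.85 in round 5 and 4.96 in round 10.

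Of the secreted signals, upd1, the cytokine of the JAK-STAT pathway, had 8.89, 9.41 and 8.92 in the tumours, against 3.75, 7.73 and 2.02 in the ts1 brains (4.57 ± 1.0, adjusted p 0.00194), and its means were 10.72 and 10.69 in rounds 5 and 10. The other 5 genes of that list were not called. The PDGF and VEGF related ligand gene Pvf1 rose by 1.76, with 6.16, 3.39 and 2.83 against 2.37, 2.36 and 2.38, and Pvf3, a related ligand gene near background in both groups, fell by 1.66. In the JNK and invasion list, cher, the filamin, rose by 3.75, while wgn, the TNF receptor wengen, and scaf fell by 2.57 and 2.74. That list of 16 had 2 higher and 3 lower calls, beside 13.8% and 9.85% over all genes. Without ts1 replicate 6 it had 1 lower call, and Pvf1 and cher had adjusted p of 0.0888 and 0.0797. In the polarity and Hippo list 3 of 19 rose (2 without ts1 replicate 6), near the 13.8% called higher over all genes. Of these crb, the apical determinant crumbs, had 9.53, 10.58 and 10.63 against 7.26, 9.24 and 7.35, and sav and Mer, upstream members of the Hippo pathway, rose by 1.21 and 1.34, while yki itself was at 0.35 and not called. Of 9 insulin pathway genes 1 fell, Sdr, a secreted decoy of insulin-like peptides, by 2.68.

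In the basement membrane list 2 genes rose and 2 fell of 10. Ppn, papilin, had 10.63, 11.34 and 10.33 in the tumours against 7.39, 4.17 and 7.97 in the ts1 brains, and vkg, a collagen IV chain, had 7.53, 8.53 and 7.52 against 4.03, 4.72 and 4.15. vkg averaged 7.90 in the EMBL ts1 brains and 8.12 in WT, so the low value stood in the IRB ts1 brains alone among these groups. LanB2, a laminin chain, fell by 3.32 and the peroxidasin gene Pxn by 2.48, and Pxn was not called without ts1 replicate 6 (adjusted p 0.229). In the ring gland list Ptth, the peptide that starts steroid production, had 8.53, 9.46 and 9.26 against 5.59, 6.23 and 6.15, and its receptor gene tor had 9.91, 9.21 and 9.25 against 5.66, 7.44 and 4.42, while the other 5 genes of the list were not called. Of 15 ecdysone response genes 2 rose (EcR by 1.17 and ftz-f1 by 1.02) and 2 fell (Eip93F by 1.92 and ImpE1 by 2.99), with a median of -0.93, and both losses had the opposite sign, 1.32 and 0.73, against the EMBL ts1 brains. The share that rose was near the 13.8% called higher over all genes, where 9.85% were called lower. The adjusted p without ts1 replicate 6 was 0.201 for EcR and 0.0777 for ftz-f1. Of 10 cuticle genes, Cht5, Cpr49Ac and Pcp fell by 4.13, 3.75 and 3.47, and Cht2, a chitinase, rose by 3.01, but Pcp was not called without ts1 replicate 6 (adjusted p 0.063) and Cpr49Ac had the opposite sign, 0.82, against the EMBL ts1 brains. Of 10 heat shock genes only DnaJ-1 was called, lower by 1.28, near the 9.85% called lower over all genes. Of 11 sex determination genes only fru was called, higher by 1.46 (adjusted p 0.188 without ts1 replicate 6), and none of the 3 Hox genes tested was (limma, median -1.27, 1 lower at an unadjusted p under 0.05).

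Some genes went from background to clear signal or the reverse. Of the 8264 genes tested, 102 were over 6 on every round 1 tumour array and under 4 on every ts1 brain array. Another 17 genes had the reverse pattern. The rule itself sets the groups apart, so that all of these genes were called adds no support. The low level in the IRB ts1 brains is part of the rule, but that in WT brains is not. Of the 102 genes, 77 were under 4 on all WT arrays and 1 was over 6 on all. In the EMBL ts1 brains, 46 of the 102 were under 4 on all arrays and 11 over 6 on all. Of the 102 genes, 32 were over 6 on every array of both later rounds, among them Cyp4p2, Cyp4p1, Cyp309a1, Agpat4, nanos and vilya. Only 7 were under 4 on every array of both later rounds: Ag5r, CG6602, Ir21a, Mal-A1, mat, Mur18B and Obp58b. Of the 17 lost genes, 10 stayed under 4 on every array of rounds 5 and 10, among them Optix, htl, Oat, Cyp12e1 and CG12239, and none was over 6 on all arrays of either round.

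Tumours of rounds 5 and 10 were also set against the EMBL ts1 brains. None of these arrays enters the group means compared above, but those of rounds 5 and 10 enter the spread that the fit shares over groups. In that comparison round 5 tumours had 643 genes higher and 869 lower (7.78% and 10.5% of genes tested), and round 10 tumours 658 higher and 877 lower (7.96% and 10.6%). Of the 1144 genes higher in round 1 tumours, 320 were called higher in round 5, which is 28.0% of the round 1 list and 49.8% of the round 5 list, and 304 in round 10 (26.6% and 46.2%). Of the 814 genes lower in round 1 tumours, 452 were called lower in round 5 (55.5% and 52.0%) and 459 in round 10 (56.4% and 52.3%). Calls in the opposite direction numbered 27 and 50 among the genes higher in round 1, and 14 and 19 among those lower. The losses were thus called again in a larger share of their list than the gains, and whether these shares differ was not tested. Both later comparisons share the EMBL ts1 brains, and the later tumours were run at IRB, with the sites set equal on WT before deposition.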

How the data were processed

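Total RNA of each sample had been hybridised to an Affymetrix Drosophila array. The authors deposited log2 expression values, made with GCRMA (background correction, normalization and 1 value per probe set), per the submitters' processing notes. Its version and settings are not given in the sources used here. The values cover 18952 probe sets on 33 arrays, of which 183 are controls. WT means of IRB and EMBL were equal for all probe sets within 1e-06, so the sites had been centred on WT before deposition, a step the labels do not describe. Within IRB it cancels.

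Each gene was represented by the probe set with the highest mean among the 13647 that name it alone. The 402 probe sets of several genes and the 4720 that the annotation does not list were not used. The 8264 genes (of 11982) that passed 4 on the log2 scale on 3 or more arrays entered the test. The fit was limma 3.58.1 in R 4.3.3 over the 24 IRB arrays in 8 groups, with 16 residual degrees of freedom, so the spread is shared over groups. Calls needed a Benjamini-Hochberg adjusted p under 0.05 over all genes and a log2 difference of at least 1. Arrays have no read depth, and their number limits the precision.

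The groups, the 37 gene lists (620 of 767 entries matched) and the tests were chosen with earlier results of these data known. Named genes were l(3)mbt, the 20 largest called differences each way without overlap and with the higher mean over 4, up to 4 called genes per list, and set brain markers. Alternatives changed the samples, the filter, the scaling, the probe set rule and the test.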

Additional observations from a re-analysis of the deposited data

Results flagged for a closer look

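Of the 149 called genes named by the rule, 17 had a ts1 effect that differed between sites. The test was a limma test of the interaction (ts1 brains at 29 °C minus WT at IRB, minus the same at EMBL, adjusted p under 0.05 and a log2 difference of at least 1). Over all 8264 genes 90 (1.09%) were called higher and 214 (2.59%) lower in this test. The named genes were chosen for large differences from the IRB ts1 brains, which favours genes with an unusual level in those arrays. Their share therefore cannot be set against that over all genes. The IRB ts1 brains are the brain arrays of the main comparison, so these differences touch it directly. The germline genes were piwi with -6.19, nanos with -4.67, hdm with -4.58, bgcn with -3.90, AGO3 with -3.04 and mia with -1.73, all lower in the ts1 brains of IRB. Also lower there were CG32313 with -7.11, CG31373 with -4.59, CG32483 with -3.88, Cyp309a1 with -3.84, vkg with -3.60 and Agpat4 with -3.56. Higher in the ts1 brains of IRB were CG15506 with 7.06, ProtA with 4.16, ImpE1 with 3.72, Eip93F with 3.23 and DnaJ-1 with 1.16. The counts of this test depended on single arrays: without ts1 replicate 5 of IRB they were 225 and 678, and over the arrays left out in turn they ran from 48 to 225 and from 122 to 678. The cause of the site difference was not tested.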

How the results depend on the processing

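No paired analysis was possible because the round 1 tumours are numbered 1 to 3 and the ts1 brains 4 to 6, so the groups share no replicate number. Leaving out 1 array at a time gave 1425 to 2393 genes called in round 1 tumours against ts1 brains, 749 to 1476 higher and 648 to 917 lower. The lowest total came without ts1 replicate 6 and the highest without ts1 replicate 5. Without ts1 replicate 6, E2 29 °C replicate 1 and E2 17 °C replicate 2 together, 1028 genes were higher and 889 lower. With only the 6 compared arrays the calls numbered 995, of which 527 were gains and 468 losses, and limma's treat against a log2 difference of 1 called 645, 388 higher and 257 lower. Against the EMBL ts1 brains 650 genes were higher, array weights gave 1305 lower, and no fold threshold 1272 lower. The array weights set ts1 replicate 4 at 54.5, far above the other arrays, and their fit stopped before it converged. Other filters, scalings and probe set rules left these counts within 1.5 times. For the later rounds, leaving out arrays gave 524 to 594 higher and 767 to 812 lower in round 5, and 536 to 593 higher and 755 to 809 lower in round 10.

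Of the 149 called genes named by the rule, 70 kept their call in every alternative in which they were tested, 121 did without ts1 replicate 6 and 101 against the EMBL ts1 brains. Against those EMBL arrays 14 changed sign: piwi -0.89, mia -0.70, hdm -0.33, chp -0.31, Cdc6 -0.089, Mer -0.061, Orc1 -0.059 and vkg -0.035 turned negative, and Eip93F 1.32, Cpr49Ac 0.82, ImpE1 0.73, elav 0.40, ProtA 0.26 and Pvf3 0.040 turned positive. The cause was not tested. ase, not called, ran from -0.35 without ts1 replicate 6 to 0.26 without ts1 replicate 5, and was 0.17 without round 1 tumour replicate 3 and 0.019 with array weights. In the test of ts1 brains between sites, leaving out arrays gave 48 to 225 genes higher and 122 to 678 lower.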
